A study of Mus musculus with 15 samples.

Results

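A set of 7 marker genes of the cells that wrap blood vessels was followed, by name, through 15 single cells of fat tissue: Rgs5, Higd1b, Kcnj8, Abcc9, Acta2, Esam and Gja4. They are 7 of the 8446 rows of the deposited table, and all 7 had a row. The cells carried the Tomato reporter and came from inguinal white fat. The mice were adult C57BL/6 animals with the genotype Prrx1-CreERT;Tomato, in which tamoxifen activates a Cre recombinase driven by Prrx1, a homeobox gene of mesenchyme. All cells share this genotype and the tamoxifen treatment, given once daily on 3 days at 2 mg per 30 g body weight, and no cell of another treatment or genotype was compared. Cells were freed from minced fat with collagenase, sorted for Tomato and picked one at a time under a fluorescence microscope, and each cell, F1 to F15, is 1 library. No animal is named, and the cells are treated as 1 sample. Every statement about them is a description without a p-value, and the spread between cells cannot be divided into spread between mice and spread within a mouse.

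Mural cells are the pericytes of capillaries and the smooth muscle cells of larger vessels. They sit on the outside of the endothelium, receive PDGF-B from it through Pdgfrb, and set vessel tone through a contractile apparatus and through channels and receptors that act on calcium. White fat is densely supplied with capillaries, and cells of the vessel wall have been studied there as a possible source of adipocytes. Among the 7 genes, Rgs5 encodes a protein that shortens signals of G protein-coupled receptors, and Kcnj8 and Abcc9 encode the pore and the regulatory subunit of a vascular potassium channel closed by ATP. Gja4 encodes connexin 37 of gap junctions, Esam an adhesion molecule of the immunoglobulin family shared with endothelium, Higd1b a mitochondrial membrane protein, and Acta2 the actin of smooth muscle.

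Values are log2(FPKM + 1), where FPKM is the number of fragments scaled to transcript length and sequencing depth, and they had been brought to the same distribution in every cell. The highest value of every cell was therefore 13.69 and the median 1.18. In every cell 3417 rows, 40.5% of the table, stood at 5 FPKM or more (a value of 2.58), the level used here for a gene to count as clearly present. Read depth is unknown. Rows at the cell's lowest value numbered 930 to 1974. F5 had 1483 such rows and F13 had 1383, where the median cell had 1385.

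The marker genes stood high in 2 cells, F5 and F13. All 7 reached 5 FPKM in F5 and 5 of them did in F13, where Abcc9 and Acta2 were below it. For those 5 genes F5 and F13 were also the 2 highest cells, which was so for 1.36% of all rows at this level. Since F5 and F13 were singled out by these same genes, the share is no support for the markers. The mean over the 7 genes was 8.51 in F5 and 7.31 in F13, and between 0.35 (F8) and 1.94 (F15) in the other 13 cells. The summed level of the 7 genes was 5027 FPKM in F5 and 6569 FPKM in F13, and from 2.68 to 42.7 FPKM in the others. F10 and F15 each had 3 of the genes at 5 FPKM, and no other of the 13 cells had more than 1.

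**Figure D1:**
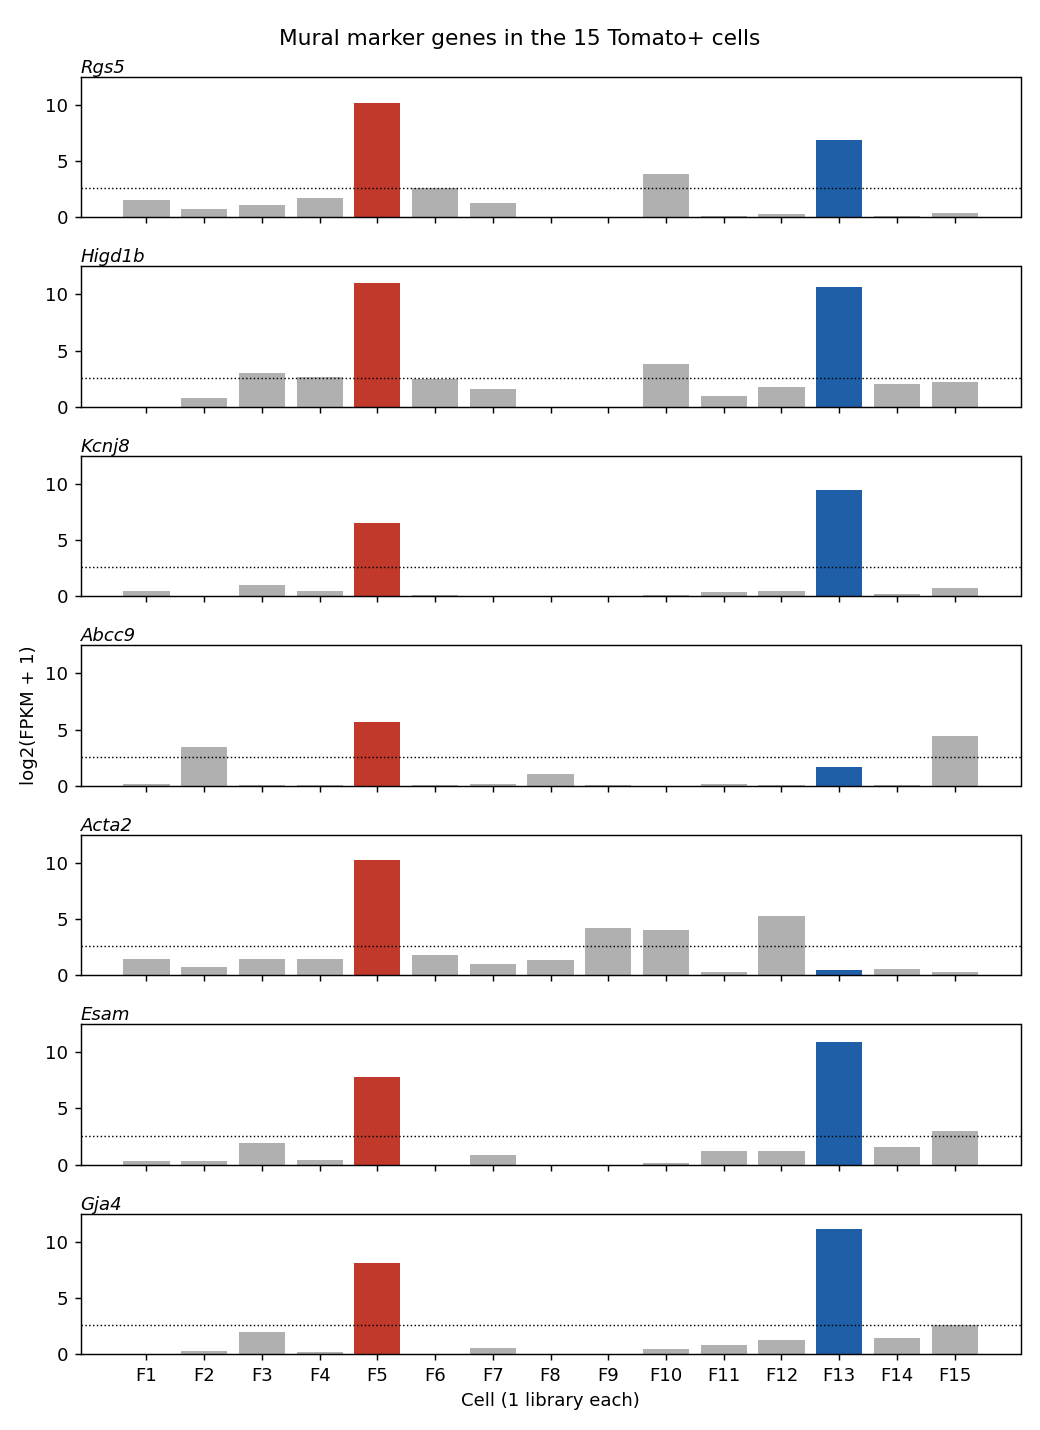
Level of each of the 7 marker genes in the 15 cells, as log2(FPKM + 1) on the vertical axis, 1 bar per cell with F5 in red and F13 in blue; the dotted line marks 5 FPKM. Higd1b stands at 10.98 and 10.68 in these cells, while Acta2 stands at 10.23 in F5 and 0.45 in F13.

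Higd1b was the gene that F5 and F13 held most alike. The gene lies on the plus strand of chromosome 11, from 102835849 to 102838040 (GRCm38). Over the 15 cells its level ran from 0 through a median of 2.01 to 10.98. F5 stood at 10.98 and F13 at 10.68, a difference of 0.30, and Higd1b was the 36th highest row of F5 and the 50th highest of F13. The next cells, F10 (3.84) and F3 (2.99), were far lower, so the lower of the high pair was 6.84 above the highest of the rest. This was the widest such margin of the 8446 rows. The relatives of Higd1b did not follow it: Higd1a stood at 1.49 in F5 and 5.21 in F13, within the range of the other cells (0.54 to 6.50), and Higd2a at 3.76 and 0.28.

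Rgs5 was also highest in these cells, but unequally. It lies on the plus strand of chromosome 1, from 169655501 to 169695813. Its level ran from 0 through a median of 1.15 to 10.18, with 10.18 in F5 and 6.90 in F13. F10 (3.86) and F6 (2.62) followed and were the only other cells at 5 FPKM. F13 was 3.28 below F5 and 3.04 above F10. Of the 6 rows of the RGS family, Rgs5 was the 1 row with F5 and F13 as the highest cells. Rgs2 stood at 0.42 and 0.08 there and reached 9.17 in F8, while Rgs3 stood at 6.29 and 4.59, below 7.79 in F6.

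The potassium channel genes parted. Kcnj8 and Abcc9 are neighbours on chromosome 6 (minus strand), at 142564837 to 142571614 and 142587862 to 142702315, with 16.2 kb between them. Kcnj8 ran from 0 through a median of 0.39 to 9.43. It stood at 9.43 in F13 and 6.53 in F5, and no other cell exceeded 1.01 (F3), so that F5 was 5.51 above all of the other 13. Abcc9 ran from 0.03 through a median of 0.12 to 5.68. It was highest in F5 (5.68), followed by F15 (4.42) and F2 (3.46), and F13 came 4th at 1.68. In F15 and F2, Kcnj8 stood at 0.72 and 0.06. Only F5 therefore had both subunits at 5 FPKM. One exon of Abcc9 overlaps the antisense gene 5330439B14Rik, whose reads may be counted with it. Kcnj11 and Abcc8, which encode the other pore and regulatory subunit of this channel family, were not analysed here.

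Acta2 separated the high cells most. The gene occupies 34241090 to 34255590 of chromosome 19 (minus strand). Over the 15 cells it ran from 0.27 through a median of 1.41 to 10.23. It was the 82nd highest row of F5, at 10.23, and the 5037th of F13, at 0.45, a difference of 9.78. F12 (5.23), F9 (4.21) and F10 (4.03) also had Acta2 at 5 FPKM or more, and none of these had Kcnj8, Esam or Gja4 at that level. F13 ranked 13th of the 15 cells for Acta2. The non-muscle actins were not higher in F5: Actb stood at 10.37 in F5 and 11.08 in F13. Actg1 had a gap the other way, at least 2 log2 units higher in F13 (10.88) than in F5 (8.60).

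Esam and Gja4 had nearly the same pattern, higher in F13 than in F5. Esam occupies 37528078 to 37538319 of chromosome 9 (plus strand), and Gja4 127311421 to 127314039 of chromosome 4 (minus strand). Esam ran from 0 through a median of 0.82 to 10.90, with 10.90 in F13, 7.83 in F5 and 2.97 in F15. Gja4 ran from 0 through a median of 0.53 to 11.11, with 11.11 in F13, 8.14 in F5 and 2.62 in F15. Gja4 was the 31st highest row of F13 and Esam the 39th. Both genes were 4.86 or more higher in F5 than in any of the other 13 cells. Of the 4 connexin rows, Gjc1 (connexin 45) also had F5 and F13 as its highest cells, but with F5 the higher: 9.42 in F5, 8.78 in F13 and at most 6.08 elsewhere (F10). Gja1 (connexin 43), a widespread connexin, did not: it stood at 5.70 in F5 but at 0.33 in F13, its lowest level in the 15 cells. Jam3, another junctional adhesion molecule, stood at 5.87 in F13 and 0.19 in F5. It was highest in F12 (6.18) and reached 5 FPKM in 6 cells.

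The families read beside the markers had few rows: 2 of 4 channel genes, 6 of 23 RGS genes, 8 of 12 HIG1 and respiratory genes, 3 of 6 actins, 4 of 20 connexins and 4 of 10 junctional adhesion molecules. By the rule given below for rows high in F5 and F13 only, Gjc1 was the 1 row of these families that passed beside the markers. The share over all rows was 0.58%.

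Apart from Higd1b, the genes thus fell into equal sets by which cell was higher. Rgs5, Abcc9 and Acta2 were at least 2 log2 units higher in F5 than in F13, and Kcnj8, Esam and Gja4 at least 2 units higher in F13, by 2.90, 3.07 and 2.96. Such gaps were common in these libraries: 21.2% of all rows were higher in F5 by this rule and 21.2% higher in F13. The split of the markers, 3 of 7 each way, is therefore given as a description of these libraries.

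**Figure D2:**
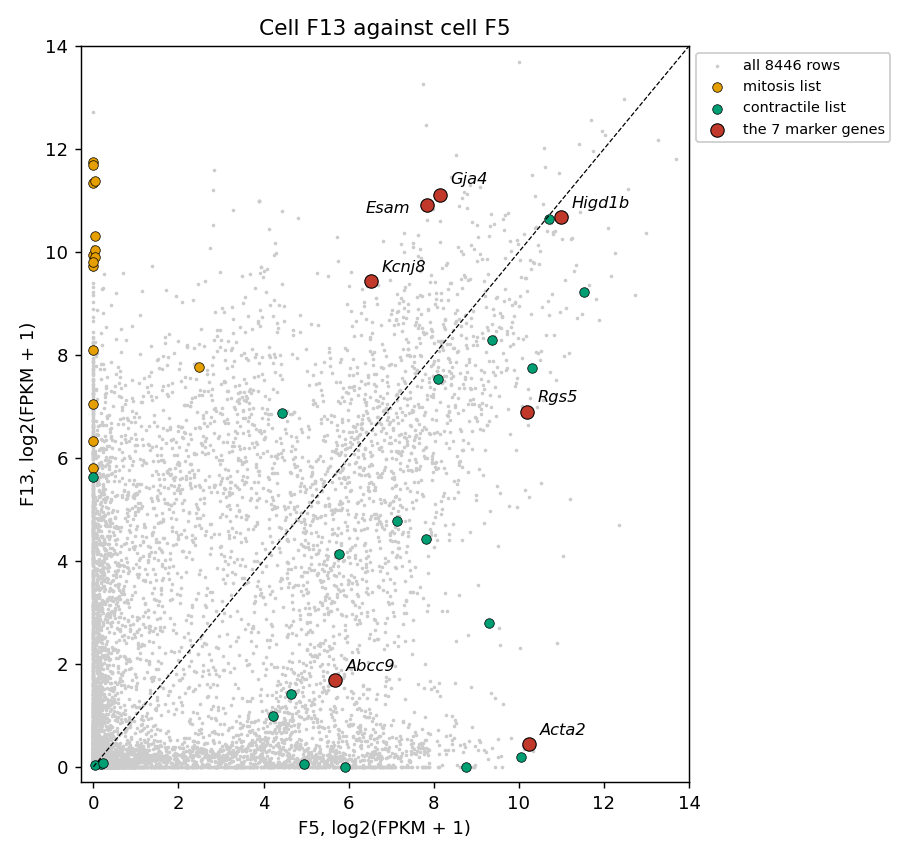
Each point is a row of the table, with its log2(FPKM + 1) in F5 on the horizontal axis and in F13 on the vertical axis; the dashed line marks equal values. Kcnj8, Esam and Gja4 lie above the line, Rgs5, Abcc9 and Acta2 below it, Higd1b close to it, and the mitosis list lies along the F13 axis.

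Across the 15 cells the 21 pairs of marker genes had Pearson correlations from 0.258 (Acta2 and Esam) to 0.998 (Esam and Gja4), with a median of 0.611. The high cells carried most of this: over the other 13 cells the median was 0.110. These points share the normalization to a common distribution, and 15 cells are few. Esam and Gja4 still went together over the 13 cells at their low values (Pearson 0.976, Spearman 0.961), with the order F15, F3, F14, F12, F11 and F7 at the top of both. Kcnj8 went with Esam (0.727) and Gja4 (0.725), and Rgs5 with Higd1b (0.651). Other pairs ran opposite ways over the 13 cells, the lowest being Abcc9 and Acta2 (Pearson -0.406, Spearman -0.835). Kcnj8 was also highest in F3 and F15 among these cells, at 1.01 and 0.72. The same cells, F15 and F3, had the highest means of the mitosis list among the 13 (1.97 and 1.59), a list that was otherwise high in F13. The part of this in the low values of the markers was not tested.

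By likeness of pattern, each marker was compared with the 7393 rows that reached 5 FPKM in at least 2 cells. Tinagl1, a secreted matricellular protein of basement membranes, was the row most like Rgs5 (Pearson 0.993 over 15 cells, Spearman 0.975) and also the row most like Higd1b (0.955). It stood at 10.64 in F5, 8.38 in F13 and 3.88 in F10. Polg2 (0.962) and Kin (0.960) came next for Rgs5, and Mad2l1bp (0.951) for Higd1b. Esam and Gja4 were most like each other, followed for both by Kcnj8 (0.979 and 0.983) and Cobll1 (0.969 and 0.976). Cobll1, an actin-binding protein, was the row most like Kcnj8 (0.991, but Spearman 0.370). Abcc9 was most like Lyn (0.920), Ago1 (0.879) and Fah (0.879), which were all at 5.27 or more in F15. Acta2 was most like Akap1 (0.889), Tubgcp2 (0.889) and Cnot10 (0.887), none of them a gene of the contractile apparatus. Spearman coefficients stayed high for Esam with Gja4 (0.975), Kcnj8 with Esam (0.814) and Tinagl1 with Higd1b (0.807). They were much lower for others: Kin with Rgs5 (0.404), Mad2l1bp with Higd1b (0.473) and Tubgcp2 with Acta2 (0.155). These names describe likeness of pattern only.

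The same question was put to the whole table: which rows were clearly higher in both F5 and F13 than in every other cell. A row was counted when both cells stood at 5 FPKM or more and the lower of them was at least 1 log2 unit above the highest of the other 13. This held for 49 of 8446 rows, 0.58% of the table, and for 5 of the 7 markers: Higd1b, Gja4, Kcnj8, Esam and Rgs5. Such rows are called high in F5 and F13 only, although the rule does not ask that the other cells be low. For 7 of the 49 rows, all of the other 13 cells were below 1 FPKM. Since F5 and F13 were singled out for their marker levels, the markers' own count supports nothing beyond the values above. At the edge of the rule, Fads3 was counted with a lower value of 6.04 against 5.04 in F7, while Fh1 (8.34 against 7.34 in F3) fell just short before rounding and Hnrnpk had 10.11 against 9.15 in F2.

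Among the 12 rows with the widest margin were Higd1b, Gja4, Kcnj8, Klhdc8b, Esam, Tinagl1, Cobll1, Mad2l1bp, Art3, Raph1 and Ebag9. Klhdc8b, a kelch-repeat protein, stood at 5.99 in F5 and 5.62 in F13 against 0.34 in F1, the highest other cell, although one of its exons overlaps Ccdc71 on the opposite strand. Raph1, the actin regulator lamellipodin, stood at 7.53 in F5 and, in F13, 3.28 above the 3.72 of F6. Art3, a surface protein of the ADP-ribosyltransferase family and a known pericyte marker, stood at 9.01 and 9.82 against 5.31 in F8, and it shares exon sequence with Cxcl10 on the opposite strand. Mad2l1bp, which releases the spindle checkpoint, stood at 6.84 in F5 and 5.17 in F13, although the mean of the mitosis genes described below was 0.18 in F5. Of the 49 rows 35 were higher in F5 and 14 in F13, and 24 differed by no more than 1 log2 unit between them.

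**Figure D3:**
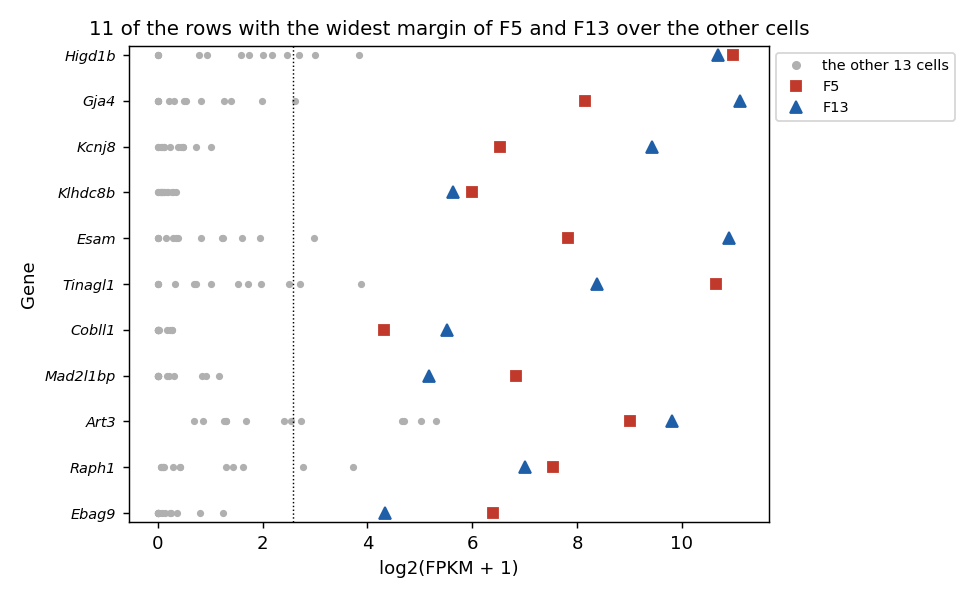
The plot shows 11 of the 12 rows with the widest margin of F5 (red squares) and F13 (blue triangles) over the other 13 cells (grey points), as log2(FPKM + 1); the dotted line marks 5 FPKM. The 13 other cells reach 0.34 for Klhdc8b and 5.31 for Art3, below both marked cells.

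Outside these rows F5 and F13 were not alike. Across the 8439 rows that are not markers, the Spearman correlation of F5 with F13 was 0.379, against a median of 0.474 over all 105 pairs of cells; the pair ranked 102nd of the 105. F13 was the cell least like F5, but F5 was 11th of the other 14 cells in likeness to F13. F13 had a median coefficient of 0.407 with the other cells, the lowest of the 15 cells, and F5 one of 0.460. Rows are not independent, and the coefficient describes these libraries. A wider pericyte list of 38 genes, without the 7 markers, had 26 rows. At 5 FPKM or more stood 16 of these in F5 and 20 in F13, against 40.5% of all rows in every cell. In the other cells 7 to 15 of the 26 did, with the 15 in F8. In both F5 and F13 together 15 did, against 22.8% of all rows. Of the 26, 5 passed the rule for rows high in both only (0.58% of all rows), among them Gjc1, Art3, Ednra and Gucy1a1. Ednra, the endothelin receptor that constricts vessels, shares exon sequence with an opposite-strand gene and stood at 5.32 in F5 and 3.63 in F13, with at most 1.92 elsewhere. Gucy1a1, a subunit of the nitric oxide receptor, stood at 6.94 and 5.08, with at most 3.42.

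The rest of the pericyte list was mixed. Of the 26 rows, 4 stood at 5 FPKM and at least 1 log2 unit above the other 14 cells in F5, and 5 did in F13. In all, 3.69% and 3.07% of rows did so. Kcne4, a potassium channel subunit, stood at 9.20 in F13, 0.54 in F5 and 6.31 in F15. Agtr1a, the angiotensin receptor, stood at 7.90 in F13 and 5.91 in F15, and under 5 FPKM in F5. Gucy1b1, the partner of Gucy1a1, stood at 5.48 in F13 and 0.24 in F5. Pdgfrb was highest in F13 (7.66), and F5 (5.35) came after F6 (5.98). Sparcl1 (12.98) and Ebf1 (9.31) were highest in F5, but both are present in every cell. Further pericyte genes were not high in either cell. Cygb, a globin, stood at 3.70 in F5, its lowest level in the 15 cells, and at 5.41 in F13, with a median of 7.12 in the others. Ggt5 stood at 1.71 and 0.23, against 6.81 in F15, and Vtn, vitronectin, at 1.70 and 0.34, against 10.28 in F14. Steap4 ranked 8th in F5 and 10th in F13, and Zic1 and Tbx18 were at 0 in both. The defining genes Cspg4, Mcam and Notch3 were not analysed here.

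The contractile list divided the cells. Of its 36 genes 20 had a row, and 16 were at 5 FPKM in F5 and 11 in F13, against 40.5% of all rows. In the other cells 6 to 11 were, with the 11 in F8. At least 2 log2 units higher in F5 were 11 rows, and 2 were higher in F13, against 21.2% of all rows each way. Its mean was 6.17 in F5, 3.74 in F13 and between 2.20 (F14) and 3.75 (F8) in the others, so F13 lay inside the range of the other cells. Myl9, the light chain that is phosphorylated when smooth muscle contracts, stood at 10.06 in F5 and 0.18 in F13, with 7.22 in F15. Tpm1, a tropomyosin, stood at 9.29 and 2.80. Cald1, caldesmon, was highest in F5 (11.53) and stood at 9.22 in F13. Some members had F5 and F13 as their highest cells: Sncg (10.31 and 7.75), Tpm2 (9.36 and 8.29) and Cnn2 (7.14 and 4.77). Sncg and Cnn2 are still among the 11 rows at least 2 log2 units higher in F5. Csrp2 stood at 8.10 and 7.53, both below 8.36 in F2. Smtn, smoothelin, went the other way, with 0 in F5 and 5.63 in F13, below 6.31 in F10. Myh11, Tagln, Cnn1 and Des, which define contractile smooth muscle, were not analysed here, so the contractile label could be read only from the genes with a row.

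**Figure D4:**
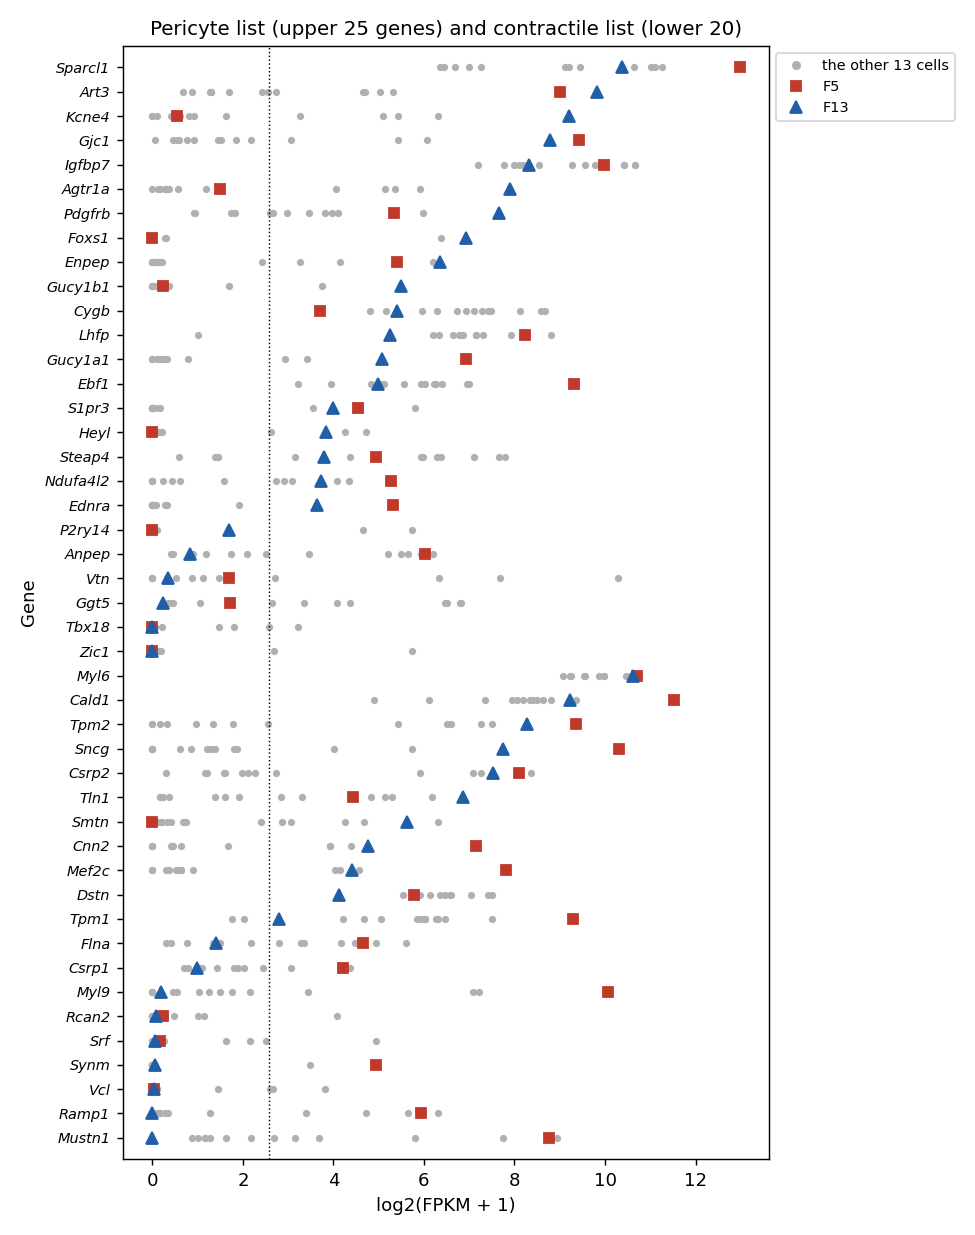
Level of 25 pericyte list genes (upper) and 20 contractile list genes (lower) as log2(FPKM + 1), each ordered by F13, with F5 as red squares, F13 as blue triangles and the other 13 cells as grey points. Myl9 stands at 10.06 in F5 and 0.18 in F13, and Kcne4 at 0.54 in F5 and 9.20 in F13.

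The promoter table of RefSeq (GRCm38.p6) held 5 of the 7 markers, without Higd1b and Esam. Acta2 is the textbook target of serum response factor, which binds the CArG box, so the 250 bases before each start were searched for it, allowing at most 1 C or G in its 6-base core on either strand. The window of Acta2 held 2 boxes, and those of Rgs5, Kcnj8, Abcc9 and Gja4 held none. Among all 32851 windows 8.59% held a box and 0.67% held 2 or more. Both Acta2 boxes are shown because Acta2 is the marker with the widest gap between F5 and F13; they are on the minus strand, with the box in capitals, and lie in the first exon of a GENCODE transcript, Acta2-201.
Acta2, chr19:34255438-34255467: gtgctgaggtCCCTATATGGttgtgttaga
Acta2, chr19:34255388-34255417: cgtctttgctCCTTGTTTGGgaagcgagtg
The windows of Kcnj8 and Gja4, markers higher in F13, are given for comparison, on the minus strand and without a box.
Kcnj8, chr6:142571615-142571864: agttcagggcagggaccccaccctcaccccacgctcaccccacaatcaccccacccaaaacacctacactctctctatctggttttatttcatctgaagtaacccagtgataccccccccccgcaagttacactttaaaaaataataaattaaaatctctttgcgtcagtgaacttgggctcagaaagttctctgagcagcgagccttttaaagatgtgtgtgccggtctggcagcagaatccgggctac
Gja4, chr4:127314040-127314289: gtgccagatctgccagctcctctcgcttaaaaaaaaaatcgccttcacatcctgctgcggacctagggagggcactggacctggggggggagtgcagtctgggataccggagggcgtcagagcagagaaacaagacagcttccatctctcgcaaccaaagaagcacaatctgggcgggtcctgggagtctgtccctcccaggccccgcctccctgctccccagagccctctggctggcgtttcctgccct
The hexamer TGGGAA, the core bound by the Notch effector Rbpj, was found on either strand in the windows of Abcc9 and Acta2, where it overlaps the box nearer to the start, and in 21.6% of all windows. A match is a run of letters, and nothing was measured at these promoters. Srf itself stood at 0.17 in F5 and 0.06 in F13.

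What else set the cells apart was counted over the table. In F5 312 rows stood at 5 FPKM or more and at least 1 log2 unit above the other 14 cells, and in F13 259 rows did; the counts of the other cells ran from 117 (F8) to 413 (F10). Acta2, Rgs5 and Abcc9 were among those of F5 (3.69% of all rows), and Kcnj8, Esam and Gja4 among those of F13 (3.07%). The rows with the widest margin in F5 were Fam71e1, Gdpd3, Bcr, Rasgrp2, Gpr19, Epb41l4aos, Map7d2 and Lacc1. Rasgrp2, which activates the small GTPase Rap1, stood at 9.53 against 3.28 in F10, and Bcr, a regulator of small GTPases, at 7.76 against 1.18 in F6. Exons of Gdpd3, Rasgrp2, Gpr19 and Lacc1 overlap other genes on the opposite strand.

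In F13 the widest margins were those of Ube2c, Cenpa, Birc5, Cdk1, Prc1, Lockd, Spc25 and Erlin1, of which 6 encode proteins of mitosis. All 15 rows of the mitosis list stood at least 1 log2 unit above every other cell in F13, against 3.07% of all rows. Birc5, Kif20a, Spc25, Nusap1, Tpx2 and Cenpa reached 5 FPKM in F13 alone. How rows were chosen for the table is not known, and a row kept through F13 alone would pass in advance. The count is therefore a description only. The mean of the mitosis list was 9.39 in F13 and 0.18 in F5. Ube2c, the enzyme that marks mitotic proteins for destruction, stood at 11.75 in F13 and 0 in F5, and the kinase Cdk1 at 11.34 and 0. Exons of Ube2c, Prc1 and Lockd overlap genes on the opposite strand. Of the 36 listed mitosis genes these 15 had a row, and none of them reached 5 FPKM in F5. In the other 13 cells 0 to 6 of them did, against 40.5% of all rows in every cell. Whether the mitotic state has a part in the difference of Acta2 between these cells was not tested.

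**Figure D5:**
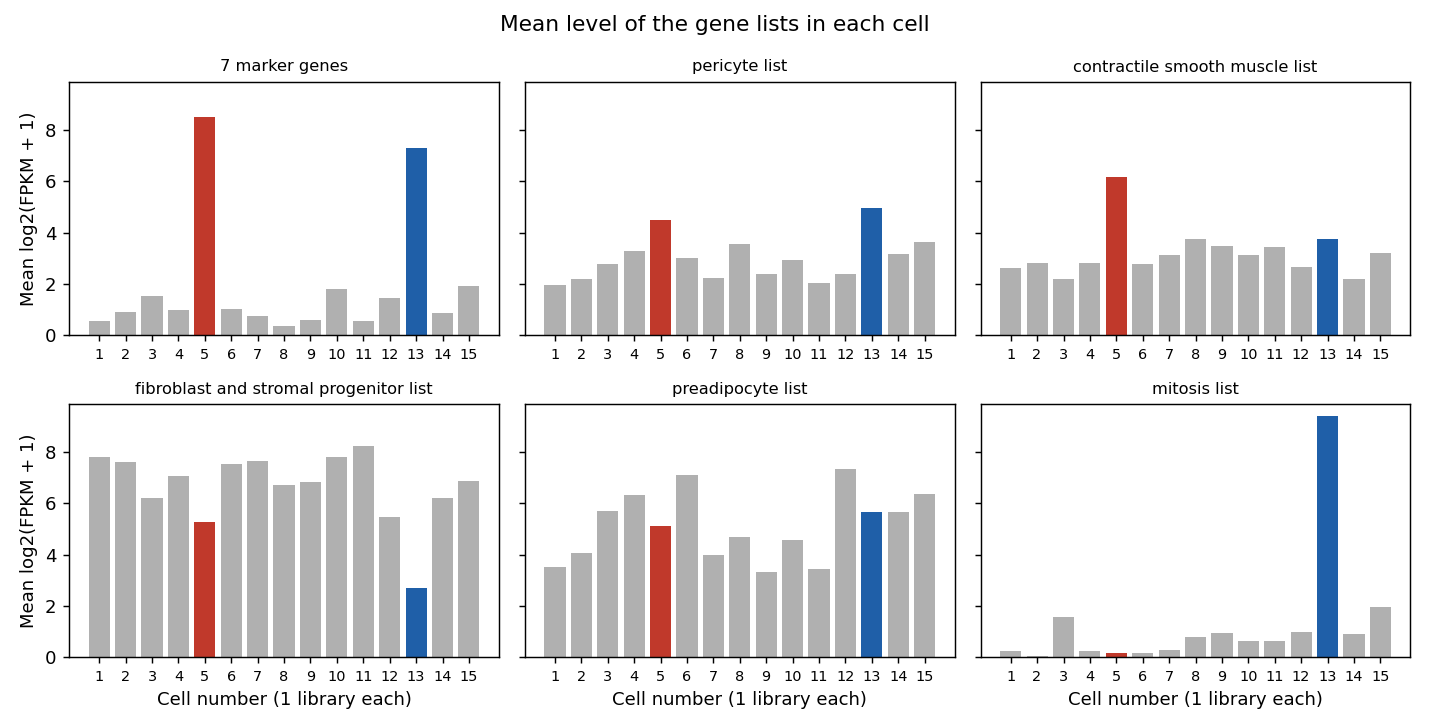
Mean log2(FPKM + 1) of 6 gene lists in each of the 15 cells, 1 bar per cell, with F5 in red and F13 in blue. The mitosis list is at 9.39 in F13 and at most 1.97 elsewhere, while the stromal list is lowest in F13, at 2.70.

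Markers of other cell types were read in the same cells. The fibroblast and stromal progenitor list, 20 of 23 genes, had means of 5.28 in F5 and 2.70 in F13, below the 5.47 to 8.26 of the other 13 cells. Its summed level was 3146 FPKM in F5, 1159 FPKM in F13 and from 4886 to 39584 FPKM elsewhere. Pdgfra, the defining receptor of fibroblasts, stood at 2.48 in F5 and 0.20 in F13, and Col1a1 at 5.38 and 2.00. Not every stromal gene was low in F5. Prrx1, whose Cre marks the cells, stood at 4.65 in F5, 8th of the 15 cells, and at 0.43 in F13, with a median of 4.85 in the others. Cd248 (7.59 in F5 and 0.63 in F13) ranked 5th in F5, and Fbln1 (2.69 and 0.23), just above 5 FPKM in F5, ranked 7th. Dpp4 (1.24 and 0.09) also ranked 5th in F5 but was below 5 FPKM there, with a median of 0.38 in the others. Col3a1 stood at 7.40 and 8.25, its lowest values of the 15 cells, with a median of 11.53 in the others.

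Of the 28 endothelial genes 6 had a row, with a summed level of 519 FPKM in F5, 395 FPKM in F13 and 52.1 to 5280 FPKM elsewhere. Tek (0.15 and 0.06), Eng (0.10 and 0.45), Plvap (0.45 and 0.12) and Calcrl (0.22 and 0.92) stood below 1 FPKM in both cells. The remaining 2, Ly6c1 (5.29 in F13, the lowest of the 15 cells, and higher in F5) and Cd36 (2.91 in F5 and 8.48 in F13), are also present in stromal cells of fat, and Pecam1 and Cdh5 were not analysed here. Tek, Eng and Calcrl were low in most cells, with medians of 0.15, 0.80 and 0.21 in the other 13 and 5 FPKM in 1, 2 and 2 cells, so their low values set F5 and F13 apart from few others. Plvap had a median of 4.59 in the others. Whether endothelial RNA has a part in the level of Esam, which endothelium also carries, was not tested. Nor was it tested for Gja4, which had nearly the same pattern as Esam (Pearson 0.998 over the 15 cells). Immune genes had 2 rows of 14, with 0.595 FPKM in F5, 2.43 FPKM in F13 and 0 to 82.6 FPKM elsewhere, and Ptprc was not analysed here. The 2 Schwann cell rows of 8 had means of 2.69 and 0.26, within the 0.25 to 5.03 of the other cells.

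The preadipocyte list, 13 of 14 genes, had means of 5.14 in F5 and 5.69 in F13, inside the range of the others (3.32 to 7.36). Of its rows 4 were at least 2 log2 units higher in F13 and 3 in F5, against 21.2% of all rows each way. Pparg, the regulator of fat cell differentiation, stood at 9.29 in F13 and 0.22 in F5, with 6.25 in F14. Plin2, which coats lipid droplets, stood at 12.47 and 7.82, and Fabp4, a fatty acid carrier, at 13.69 and 10.00. F13 was the highest cell for Pparg and Plin2 and shared the top of the scale with F4 for Fabp4. In the other direction, Dlk1 stood at 5.62 in F5 and 0 in F13, Col15a1 at 4.89 and 0.36, and Apoe at 4.67 and 2.04. Lpl, lipoprotein lipase, stood at 6.30 and 6.69. Of the 10 genes of mature adipocytes 5 had a row. None reached 5 FPKM in F13 and 1, Acaca at 8.96, did in F5. In the other 13 cells 0 to 3 of these rows did, against 40.5% of all rows in every cell. Adipoq was not analysed here. No doublet caller was run on these picked cells, and whether F5 or F13 held RNA of more than 1 cell was not tested.

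The basement membrane list stood at a mean of 4.49 in F5 and 2.97 in F13, in a range of 2.85 to 5.71 for the others. Of its 14 rows, none passed the rule for rows high in both only. Since 0.58% of all rows passed it, none of 14 says little about the list. Col4a1 stood at 7.33 and 7.45, below a median of 8.06. Of 41 genes of signalling between endothelium and mural cells 19 had a row, and 2 of them passed that rule, Ednra and Gucy1a1. Both were already counted in the pericyte list. The Notch target Hes1 stood at 8.74 in F5 and 7.54 in F13, with 9.20 in F9, so neither cell was the highest.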

How the data were processed

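Each picked Tomato+ cell was made into a library with SMART-Seq v4 chemistry for 3' ends and Nextera XT, per the labels' protocols. The submitters' processing notes list TopHat2, Cufflinks and GRCm38, with no role for each; other settings were not stated. The deposited values are on a log2 scale, log2(FPKM + 1): read so, a cell sums to 592948 FPKM on average, and as natural logarithms to 12675749. The base is inferred. The sorted columns agree to within 0.0354 above 0.2, so the values had been quantile-normalized, and the levels of a cell are ranks on a common scale. The design had assumed that linear FPKM might need a logarithm; none was taken. Columns were tied to cells by the number in the title; 18 unnamed columns are empty.

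Of 8446 rows 8431 matched a reference symbol. Counts of rows and Pearson correlations were computed with Python 3.11.15 and pandas 2.3.3, and the counting was tested on simulated data. Named genes were the 7 markers, the 12 rows with the widest margin in F5 and F13, the 8 of each cell alone, the 3 rows most like each marker, and the highest and defining genes of 18 lists, the markers among them; some of these are not reported here. The members and lists were chosen with earlier results of these data known. Overlaps of exons are given for some of the named genes, since strand counting is not stated. Other named genes overlap too, among them Polg2 (Milr1), Cygb (Prcd) and Eng (Fpgs), each on the opposite strand. Positions are from GENCODE M21.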

Additional observations from a re-analysis of the deposited data

How the results depend on the processing

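No statistical test was run, since the cells count as 1 sample, and depth is unknown. No paired analysis was possible because there is 1 group. The marker values detected at 1 FPKM outside F5 and F13 numbered 36 of the values in the other 13 cells, but 12 at 5 FPKM and 7 with a further floor at 1% of each gene's maximum. The 49 rows high in F5 and F13 only became 26 with a margin of 2 log2 units and 115 with none. The 312 rows of F5 alone became 143 and 781, and the 259 of F13 alone 119 and 603. The 1788 rows higher in F5 than in F13 and the 1789 higher in F13 became 882 and 925 at a margin of 4. Other levels moved these counts by less than 1.5 times. Leaving out F1, F11 and F14, the cells with the most rows at their lowest value, gave 64 rows high in F5 and F13 only. Rows high in F5 only numbered 352 with F13 left out of the comparison, and rows high in F13 only numbered 309 with F5 left out. These alternatives were chosen after seeing the data. The median Pearson correlation of the marker pairs, 0.611, was 0.302 as Spearman's rho, 0.296 without F5, 0.791 without F13 and 0.110 without both.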

Other observations

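Among the rows high in F5 and F13 only, some outside the fixed lists, named here after their values were seen, encode parts of receptor signalling, adhesion and transport. Gng11, a G protein gamma subunit, stood at 10.58 in F5 and 10.93 in F13, with 8.30 in F9. Plcl1, a catalytically inactive relative of phospholipase C, stood at 4.97 and 4.71, with 2.77 in F7. Gipc1, an adaptor that links receptors to myosin VI, stood at 8.01 and 7.33, with 4.63 in F12. Ilk, the integrin-linked kinase, stood at 8.63 and 8.38, with 7.37 in F4, near the limit of the rule. The transporter Abcg2 stood at 6.77 and 6.66, with 4.96 in F12. Hspb6, a small heat shock protein of smooth muscle, stood at 7.10 and 4.07, with 2.46 in F6, and shares exon sequence with Proser3 and Lin37 on the opposite strand.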
